A study of Mus musculus with 15 samples.

Results

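The 10 genes described here make, control and break down polyamines: Odc1, Amd1, Srm and Sms (synthesis), Azin1, Oaz1 and Oaz2 (control of ornithine decarboxylase), and Sat1, Smox and Paox (breakdown). They were chosen by symbol, with earlier results of these data known, and all 10 were found among the 53380 genes counted in 15 RNA-seq libraries. The cells were cultured mouse cells of T cell acute lymphoblastic leukemia, T-ALL, taken from tumors of FVB/N mice that carry EμSRα-tTA and tet-O-MYC, so that a lymphoid promoter drives a transactivator which keeps a human MYC transgene on until doxycycline is added. The MYC on state was mock treated (0 h), and the MYC off states had doxycycline for 2, 4, 8 or 24 h, with 3 libraries at each of the 5 time points. All groups carry both transgenes, and the mock cells had no doxycycline, so MYC loss and exposure to the drug cannot be told apart in these libraries. The sources used here state neither whether replicates were separate cultures nor whether the cells were 1 clone, so the p-values cover just the spread among libraries, which may be technical. The comparisons below ask how the mRNA of each step of polyamine metabolism moved after MYC was switched off.

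Polyamines (putrescine, spermidine and spermine) are small positively charged molecules that bind RNA, DNA and ribosomes, and dividing cells need them. Ornithine decarboxylase (Odc1) makes putrescine, S-adenosylmethionine decarboxylase (Amd1) makes the aminopropyl donor, spermidine synthase (Srm) joins the pair into spermidine, and spermine synthase (Sms) adds a further aminopropyl group. The antizymes (Oaz1, Oaz2) bind ornithine decarboxylase and send it to the proteasome, and the antizyme inhibitor (Azin1), an inactive relative of the enzyme, takes antizyme away from it. Sat1 acetylates spermidine and spermine, Paox oxidises the acetylated products, and Smox oxidises spermine directly. Odc1 is a textbook target of MYC, which binds DNA together with MAX at E-box motifs. Much of the control of these enzymes acts on translation and protein stability, which poly(A) RNA libraries do not measure.

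Each library held 25852711 to 27102318 counts. In CPM, counts scaled to a common library size, the MYC transgene averaged 2024 at 0 h, 24.8 at 2 h (1.23% of the MYC on state) and 3.29 at 24 h, while mouse Myc had 1 count in all libraries together. All 12 T lineage markers were detected at each time, and their summed level was 10040 to 10610 CPM at 24 h, against 6064 to 6154 CPM at 0 h. The sum over 6 myeloid markers was 24.0 to 29.5 CPM at 24 h, against 9.42 to 11.6 CPM at 0 h. It was mostly Itgam and Csf1r, with Lyz2 at 0 counts. Itgam carried the higher sum, averaging 20.6 CPM after 24 h of doxycycline and 2.58 CPM in the MYC on state. Csf1r went the other way, with means of 5.82 and 8.15 CPM in that order. The sum over 5 stroma markers, nearly all Pecam1, was 117 to 139 CPM at 24 h, against 55.4 to 58.5 CPM at 0 h. Markers of B, erythroid and NK cells summed to at most 0.538 CPM per list, and the part of these levels in the results below was not tested. In these bulk libraries, fewer cells of a type and less RNA per cell cannot be told apart. The levels are shares of the RNA in a library, and no measure of total RNA per cell was used. A rise or fall below is therefore relative to the other RNA of the library and need not hold per cell. Replicate 3 at 24 h stood apart: its counts differed from the other two 24 h libraries by a chi-square of 85.0 and 93.7 per degree of freedom, against 2.94 to 17.9 for every other pair of replicates, and 24 h results are therefore also given without it.

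Promoters of 3 synthesis genes that fell and of Sat1, which rose, are shown because E-boxes near start sites are the sequences that MYC is known to bind. RefSeq windows (GRCm38.p6) were found for 8 of the 10 genes, 10 windows in all. The search covered the 250 bases before the start, on both strands, for the E-box CACGTG and for its variant CACGCG, which do not overlap each other. Capitals mark each match, and the sequences run 5′ to 3′ on the strand of the gene.
Odc1, chr12:17544623-17544872, plus strand: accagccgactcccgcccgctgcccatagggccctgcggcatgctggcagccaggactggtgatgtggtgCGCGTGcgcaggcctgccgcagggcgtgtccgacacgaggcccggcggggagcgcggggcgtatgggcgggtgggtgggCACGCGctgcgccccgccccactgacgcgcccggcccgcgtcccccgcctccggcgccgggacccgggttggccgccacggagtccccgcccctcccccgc
Sms, first window, chrX:157492288-157492537, minus strand: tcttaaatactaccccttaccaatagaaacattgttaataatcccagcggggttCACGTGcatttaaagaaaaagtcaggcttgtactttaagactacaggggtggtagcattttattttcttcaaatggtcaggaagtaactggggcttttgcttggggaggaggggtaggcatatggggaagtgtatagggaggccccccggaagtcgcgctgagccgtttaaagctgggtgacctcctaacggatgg
Sms, second window, chrX:157491369-157491618, minus strand: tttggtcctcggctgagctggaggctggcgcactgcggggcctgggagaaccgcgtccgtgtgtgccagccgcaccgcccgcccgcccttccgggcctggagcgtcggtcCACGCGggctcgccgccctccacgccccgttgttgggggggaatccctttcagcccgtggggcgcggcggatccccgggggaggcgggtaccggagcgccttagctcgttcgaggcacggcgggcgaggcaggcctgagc
Amd1, chr10:40302189-40302438, minus strand: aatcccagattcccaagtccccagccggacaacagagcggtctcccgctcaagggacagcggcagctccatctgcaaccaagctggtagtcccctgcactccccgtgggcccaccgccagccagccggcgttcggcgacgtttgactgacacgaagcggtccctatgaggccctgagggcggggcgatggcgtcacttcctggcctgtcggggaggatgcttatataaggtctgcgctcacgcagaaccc
Sat1, chrX:155216450-155216699, minus strand: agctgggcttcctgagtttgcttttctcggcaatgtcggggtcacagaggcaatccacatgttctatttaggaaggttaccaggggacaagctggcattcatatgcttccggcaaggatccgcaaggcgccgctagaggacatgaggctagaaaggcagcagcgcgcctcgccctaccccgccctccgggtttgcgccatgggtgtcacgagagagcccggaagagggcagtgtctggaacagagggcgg

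CACGTG stood in 1 of the 10 windows, the first of Sms, with its first base 196 bases before the start. CACGCG stood in 3 windows: in Odc1 with first bases 180 (read on the other strand) and 101 bases before the start, in the second window of Sms (140) and in Oaz1 (212). The Amd1, Oaz2, Sat1, Smox and Paox windows held neither set of letters. The starts are those of RefSeq and can differ from the gene starts printed below. The windows of Oaz2, Smox and Paox and the second of Sms lie inside the printed gene spans. The Odc1 window runs past the printed start of Odc1. Over all 32851 windows of the same length, 6.02% held CACGTG and 7.62% held CACGCG. A match is a description of the letters in these windows only, and no binding was measured here.

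All 10 genes passed the filter on low counts that left 14485 genes tested. A gene was called where the Benjamini-Hochberg adjusted p of edgeR's quasi-likelihood test, fitted over all libraries, was under 0.01. Because the members were chosen with earlier results of these data known, their counts beside the shares of all genes are a description and no test. At 2 h against 0 h, 3 members were higher and 3 lower, where 6.6% of all tested genes were called higher and 8.59% lower. At 4 h 3 members were higher and 3 lower, against 18.1% and 19.9% of all genes. At 8 h 3 members were higher and 4 lower, against 25.3% and 25.1%, and at 24 h 3 were higher and 4 lower, against 30.7% and 28.1%. By role, the calls lower than 0 h were all among the 4 synthesis enzymes, and the calls higher were all among the 3 breakdown enzymes and Oaz2. The median log2 fold change of the 10 genes was −0.05, 0.06, 0.04 and −0.03 at 2, 4, 8 and 24 h, beside 0.01, 0.08, 0.09 and 0.07 over all tested genes.

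**Figure D1:**
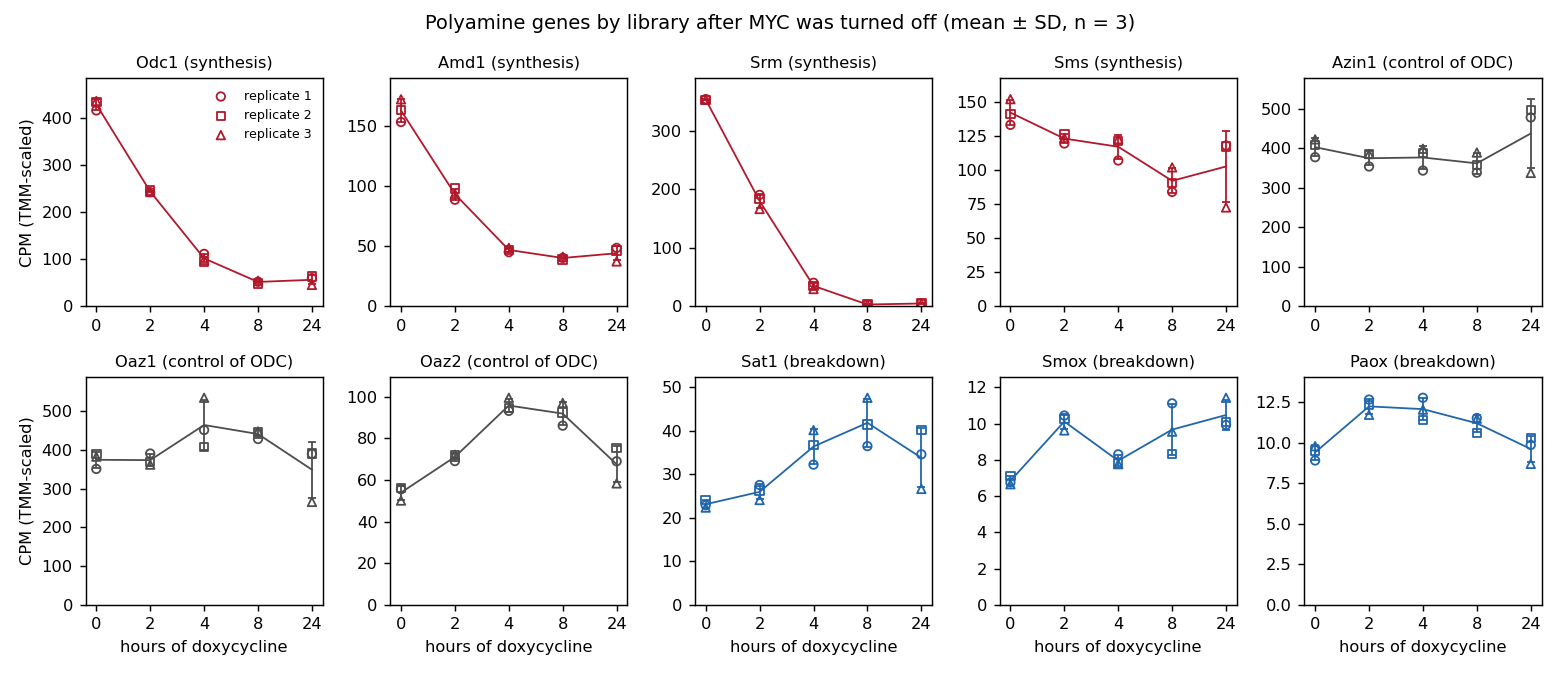
TMM-scaled CPM (vertical axis, from 0) of the 10 polyamine genes by hours of doxycycline (horizontal axis), with 1 symbol per library, lines through the means and bars of 1 SD (n = 3). Odc1, Amd1 and Srm dropped steeply by 4 h, to means of 101, 46.8 and 34.7 CPM, while the scale of the antizyme and breakdown panels shows smaller movement, and replicate 3 at 24 h (triangle) lies apart for Sms, Azin1, Oaz1 and Sat1.

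Among the synthesis enzymes, Odc1 (chr12:17544794-17551505, plus strand, GRCm38) was lower at every time than at 0 h. Its level was 416, 434 and 436 CPM at 0 h, 242, 246 and 242 after 2 h, 111, 94.8 and 98.4 after 4 h, 51.8, 48.6 and 53.9 after 8 h, and 59.5, 63.3 and 45.1 after 24 h. The libraries of 0, 2 and 4 h and of the later times did not overlap, whereas those of 8 h lay within the range of 24 h. The log2 fold changes against 0 h were −0.82, −2.08, −3.06 and −2.94, with SEs of 0.098 to 0.106 (adjusted p = 1.95e-05, 1.66e-10, 1.71e-12 and 1.83e-12). The mean at 8 h was 12% ± 0.63 of the mean at 0 h, and at 24 h 13.1% ± 2.24 (SD, n = 3).

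Amd1 (chr10:40287458-40302186, minus strand) fell over the same hours, mostly before 4 h. It was at 153, 163 and 172 CPM at 0 h, 88.7, 97.8 and 93.6 after 2 h, 45.0, 47.0 and 48.5 after 4 h, 40.2, 39.0 and 41.2 after 8 h, and 48.5, 46.5 and 37.3 after 24 h. Every library from 2 h on was below those of 0 h, and those of 24 h spanned the levels of 4 and 8 h. The log2 fold changes were −0.80, −1.80, −2.02 and −1.89 (SE 0.085 to 0.088; adjusted p from 6.05e-06 at 2 h to 2.37e-11 at 8 h). Near copies of Amd1 could share its reads: the paralog Amd2 had 1251 counts over all libraries against 30399 for Amd1, and the processed pseudogenes Amd-ps3, Amd-ps4, Amd-ps1, Amd-ps5 and Amd-ps6 had 347, 12, 4, 1 and 0. Amd2 also fell, with log2 fold changes of −0.65, −1.35, −2.16 and −1.96 (adjusted p 0.00202 at 2 h and 8.43e-09 at 24 h), which is uncertain for the same reason. Leaving out replicate 2 or 3 of 0 h, or replicate 1 or 2 of 2 h, ended its 2 h call (adjusted p 0.0105 to 0.0147).

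Srm (chr4:148591503-148594993, plus strand), the spermidine synthase gene, moved most of the 10 at each time. It was at 355, 353 and 354 CPM at 0 h, 191, 183 and 166 after 2 h, 40.0, 34.8 and 29.3 after 4 h, 2.90, 2.89 and 2.69 after 8 h, and 4.88, 4.43 and 4.44 after 24 h. No library of any time point overlapped with one of another. The log2 fold changes over the 4 times were −0.97 ± 0.087, −3.35 ± 0.096, −6.97 ± 0.121 and −6.27 ± 0.114 (SE; adjusted p = 1.24e-06, 7.02e-13, 1.24e-15 and 2.55e-15). Its level at 8 h was 0.798% ± 0.034 of that at 0 h and at 24 h 1.30% ± 0.072 (SD, n = 3). The reads behind these values were 9088, 8887 and 8939 counts at 0 h, 79, 77 and 70 after 8 h, and 145, 131 and 133 after 24 h, so the low levels stood well above the 3-count floor of 0.111 to 0.116 CPM. Ranked by fitted log2 fold change, Srm was place 4 from the lowest of all 14485 genes at 8 h and place 5 at 24 h, with Odc1 at places 116 and 144 and Amd1 at 381 and 576.

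Sms (chrX:157443855-157492287, minus strand), spermine synthase, changed little beside the other three. It was at 133, 141 and 152 CPM at 0 h, 120, 126 and 124 after 2 h, 107, 122 and 123 after 4 h, 84.0, 90.4 and 102 after 8 h, and 118, 117 and 72.6 after 24 h. The log2 fold changes of −0.21 and −0.28 at 2 and 4 h were not called (adjusted p = 0.321 and 0.105), and those of −0.63 ± 0.140 and −0.47 ± 0.139 at 8 and 24 h were (SE; adjusted p = 0.00113 and 0.00711). Every library from 2 h on lay below those of 0 h. The 24 h call is the less firm: the log2 fold change was −0.27 without 24 h replicate 3 (adjusted p = 0.00269), it was lost without 0 h replicate 2 or 3 (adjusted p = 0.0171 and 0.0289), and without 24 h replicate 3 Sms was also called lower at 4 h (adjusted p = 0.001). With only the 2 time points compared it was called lower at 2 and 4 h (adjusted p = 0.000334 and 0.00064) but not at 24 h (adjusted p = 0.0508), nor at 24 h with upper-quartile factors (adjusted p = 0.0504). Per length, in TPM, which scales transcripts to gene length and depth, Sms stood at 41.1 beside 4.75 for Srm after 8 h, against 62.1 beside 581 in the MYC on state.

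**Figure D2:**
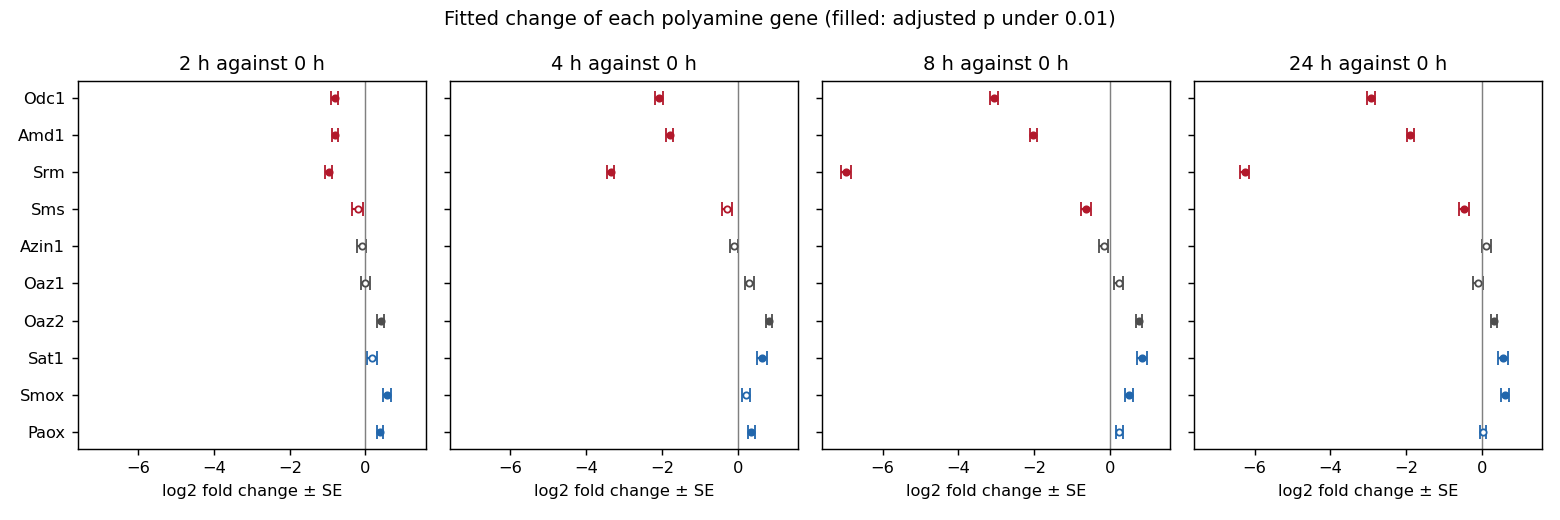
Fitted log2 fold change (horizontal axis, with bars of 1 SE) of the 10 genes against 0 h at 2, 4, 8 and 24 h, grouped by role: red for synthesis, grey for control of ornithine decarboxylase and blue for breakdown. Filled points were called at adjusted p under 0.01: Srm reached −6.97 at 8 h, whereas no antizyme or breakdown gene exceeded 0.86 at any time.

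The members that control ornithine decarboxylase (Azin1, Oaz1 and Oaz2) were not called lower with it. The antizyme Oaz3, which is not a member, was called lower at 24 h (−0.88, adjusted p = 3.11e-06). Azin1 (chr15:38487427-38519266, minus strand) was not called at any of the 4 times: it was at 377, 408 and 422 CPM at 0 h, 353, 385 and 385 after 2 h, 343, 387 and 398 after 4 h, 338, 357 and 389 after 8 h, and 478, 496 and 337 after 24 h. The libraries overlap between 0 h and every later time, with log2 fold changes of −0.10, −0.10, −0.16 and 0.12 (adjusted p from 0.254 to 0.581). Without 24 h replicate 3 the 24 h value became 0.28 and was called (adjusted p = 0.00135), as it was on plain library totals (0.39, adjusted p = 0.00353). The antisense gene Gm49077 overlaps Azin1 by 481 bases and had 26621 counts against 156512. How the counting used strand was not given in the sources used here, so reads there could belong to either gene.

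Oaz1 (chr10:80826656-80829290, plus strand), the main antizyme, was also not called at any time against 0 h. It was at 351, 390 and 383 CPM at 0 h, 391, 369 and 362 after 2 h, 452, 407 and 535 after 4 h, 429, 447 and 448 after 8 h, and 390, 392 and 266 after 24 h. All 4 h and 8 h libraries were above those of 0 h, and the fitted change of 0.31 at 4 h did not pass (adjusted p = 0.0487), nor did 0.24 at 8 h (adjusted p = 0.11). Both calls depended on the fit: the changes of 0.31 and 0.24 were called without 24 h replicate 3 (adjusted p = 0.000649 and 0.00497), changes of 0.27 and 0.21 were called with only the 2 time points compared (adjusted p = 0.00803 and 0.00327), and the 4 h change was called with no low-count filter (adjusted p = 0.00962). Without 4 h replicate 3 the 4 h change was 0.16 (adjusted p = 0.377). The direction at 2 and 24 h, where the changes were −0.00 and −0.10, flips with the scaling and without single libraries, so none is given. Its processed copy Oaz1-ps had 1917 counts against 159818, and Sms-ps and Oaz2-ps had 486 and 97 counts. Small RNA genes inside members had few: the snoRNA Gm22748 in Odc1 had 11, Mir6951 in Azin1 had 3 and Mir1982 in Oaz1 had 0 counts.

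Oaz2 (chr9:65668001-65690300, plus strand), the other antizyme among the members, rose at all 4 times. It was at 55.6, 56.1 and 50.1 CPM at 0 h, 69.1, 72.0 and 72.2 after 2 h, 93.3, 94.7 and 99.5 after 4 h, 86.1, 92.6 and 97.1 after 8 h, and 69.0, 75.4 and 58.4 after 24 h. Every library from 2 h on was above those of 0 h. The log2 fold changes were 0.40, 0.83, 0.77 and 0.33 with an SE of 0.085 each (adjusted p = 0.00267, 8.55e-07, 1.15e-06 and 0.00301). The 24 h call was lost without any 1 of 9 of the 15 libraries (0 h replicate 3, 2 h replicate 3, every 4 h library, 8 h replicates 2 and 3, and 24 h replicates 1 and 2), with adjusted p up to 0.0243, and the 2 h call without 0 h replicate 3 or 2 h replicates 2 or 3 (adjusted p 0.0203, 0.0136 and 0.015). Without 24 h replicate 3 both were called, at 0.40 and 0.42. The 24 h call was also lost with no low-count filter (adjusted p = 0.0102) and with only the 2 time points compared (adjusted p = 0.0557).

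The ratio of the antizymes to Odc1 shows the drift of the pair within each library, free of the scaling between libraries. On TPM, (Oaz1 + Oaz2)/Odc1 was 1.28, 1.34 and 1.30 at 0 h, 2.48, 2.33 and 2.33 after 2 h, 6.38, 6.86 and 8.39 after 4 h, 12.9, 14.4 and 13.1 after 8 h, and 10.1, 9.59 and 9.31 after 24 h. No library of one time overlapped with one of another, and 24 h replicate 3 lay beside its fellows. The mean at 8 h was 10.3 times that at 0 h and the mean at 24 h 7.38 times. Azin1/Odc1 went the same way, with means of 0.511 ± 0.017, 0.837 ± 0.037, 2.04 ± 0.306, 3.83 ± 0.241 and 4.23 ± 0.155 at 0, 2, 4, 8 and 24 h (SD, n = 3). In an exact two-sided permutation test each of the 20 comparisons of a ratio with 0 h gave p = 0.1, also after adjustment, which is the smallest that 3 libraries against 3 allow.

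**Figure D3:**
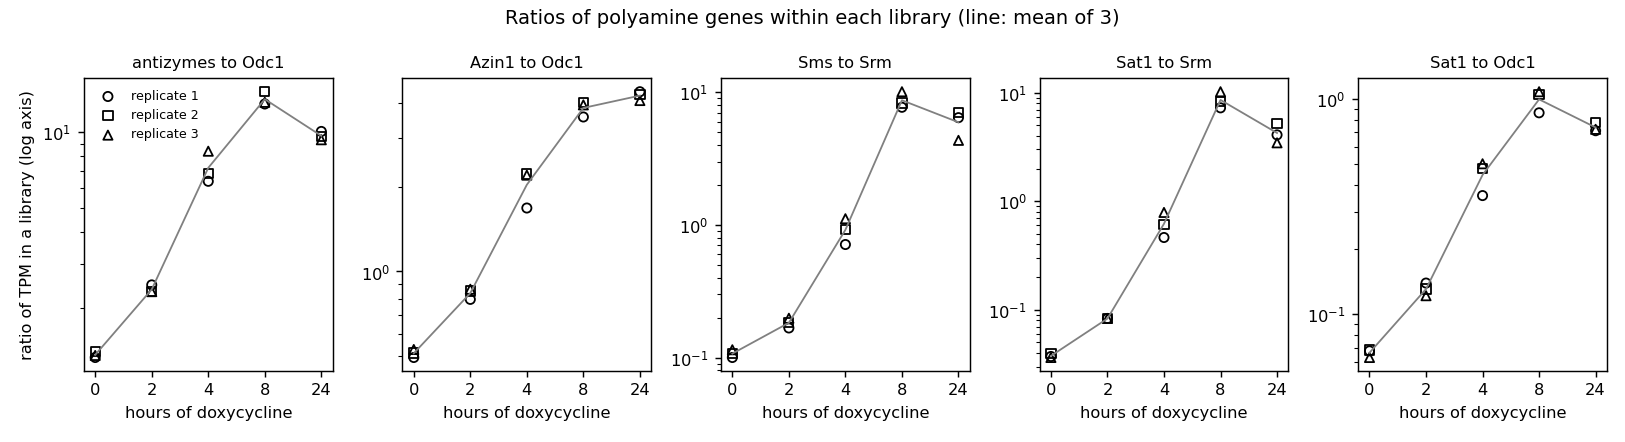
Ratios of TPM between polyamine genes in each library (vertical log axes that differ between panels) by hours of doxycycline, with 1 symbol per library and lines through the means of 3. The antizymes to Odc1 ratio had a mean of 13.5 at 8 h, against 1.31 at 0 h, and Sat1 to Srm had a mean of 8.58 at 8 h, against 0.0376 at 0 h.

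Of the breakdown genes, Sat1 (chrX:155213132-155216449, minus strand), the acetyltransferase that starts the route back to putrescine, rose from 4 h on. It was at 22.9, 24.1 and 22.3 CPM at 0 h, 27.5, 26.3 and 24.1 after 2 h, 32.2, 36.8 and 40.1 after 4 h, 36.5, 41.4 and 47.6 after 8 h, and 34.6, 40.2 and 26.6 after 24 h. Every library of 4, 8 and 24 h was above those of 0 h. The log2 fold change was 0.17 at 2 h, not called (adjusted p = 0.421), then 0.65 ± 0.134, 0.86 ± 0.133 and 0.55 ± 0.133 (SE; adjusted p = 0.000773, 4.57e-05 and 0.00183). The 4 h call was lost without 4 h replicate 3 (0.54, adjusted p = 0.0104) and the 24 h call without 24 h replicate 2 (0.40, adjusted p = 0.0123), and without 24 h replicate 3 the 24 h change was 0.69. Within libraries, the Sat1 to Srm ratio on TPM had means of 0.0376, 0.0831, 0.621, 8.58 and 4.26 over 0, 2, 4, 8 and 24 h, so Sat1 passed Srm between 4 and 8 h. Sat1 to Odc1 had means of 0.0662, 0.131, 0.444, 0.998 and 0.739 at the same times.

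Smox (chr2:131491496-131525922, plus strand), spermine oxidase, was a low gene that rose early. It was at 6.75, 7.12 and 6.65 CPM at 0 h, 10.4, 10.3 and 9.62 after 2 h, 8.30, 7.78 and 7.76 after 4 h, 11.1, 8.33 and 9.55 after 8 h, and 9.92, 10.1 and 11.4 after 24 h, from 168 to 342 counts a library. All later libraries were above those of 0 h. The calls came at 2, 8 and 24 h, with changes of 0.56 ± 0.108, 0.50 ± 0.108 and 0.61 ± 0.107 (adjusted p = 0.00119, 0.000878 and 0.000101), but not at 4 h (0.22, adjusted p = 0.111). The 8 h call was lost without 8 h replicate 1 (0.34, adjusted p = 0.0112). The step down between 2 and 4 h, of −0.35, did not pass (adjusted p = 0.0202), though it did without 8 h replicate 1 or 2 or 24 h replicate 3 (adjusted p = 0.00473, 0.00576 and 0.00622).

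Paox (chr7:140115799-140137224, plus strand), the oxidase for acetylated polyamines, was called higher at 2 and 4 h. It was at 8.90, 9.50 and 9.78 CPM at 0 h, 12.7, 12.3 and 11.7 after 2 h, 12.8, 11.4 and 12.03 after 4 h, 11.5, 10.6 and 11.5 after 8 h, and 9.85, 10.3 and 8.69 after 24 h, from 228 to 332 counts a library. Every library of 2, 4 and 8 h was above those of 0 h, and those of 24 h overlapped with them. The log2 fold changes of the called times were 0.38 ± 0.089 and 0.36 ± 0.089 (adjusted p = 0.00517 and 0.00332), and those of 8 and 24 h were 0.25 and 0.03 (adjusted p = 0.0225 and 0.762). On library totals the 8 h change was 0.36, and with upper-quartile factors 0.41, both called (adjusted p = 0.00196 and 0.000787). The calls at 2 and 4 h were thin. At 2 h the call was lost without any 1 of the 6 libraries of 0 and 2 h (adjusted p 0.0117 to 0.032) and with RLE factors (adjusted p = 0.0105). The 2 and 4 h calls were both lost with no low-count filter (adjusted p = 0.0241 and 0.0209). At 4 h the call was also lost without any 1 of 9 of the 15 libraries (adjusted p 0.0109 to 0.0365). These were 0 h replicates 1 and 2, 2 h replicate 3, and every 4 h and 8 h library. Paox overlaps Echs1 on the opposite strand by 678 bases, and Echs1 had 24234 counts against 4347 for Paox, so reads there could belong to either gene.

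Between neighbouring times, the synthesis enzymes fell in unequal steps. From 2 to 4 h, Srm, Odc1 and Amd1 were lower (−2.38 ± 0.092, −1.26 ± 0.099 and −0.995 ± 0.086; adjusted p = 8.53e-11, 1.3e-07 and 3.88e-07) and Oaz2 higher (0.43 ± 0.084, adjusted p = 0.00103), where 13% of all genes were lower and 7.72% higher. From 4 to 8 h, 0 members were higher by edgeR and by DESeq2 (1, Smox, at an unadjusted p under 0.05), and Srm (−3.62 ± 0.114, adjusted p = 4.04e-11) and Odc1 (−0.98 ± 0.1, adjusted p = 5.27e-06) were lower, with 5.73% of all genes higher and 6.97% lower. From 8 to 24 h, Srm was higher (0.70 ± 0.128, adjusted p = 0.000381) and Oaz2 lower (−0.44 ± 0.0839, adjusted p = 0.000492), with 20.8% of all genes higher and 17.3% lower. These steps share libraries with the changes against 0 h. The Oaz2 step to 4 h was lost without 2 h replicate 3 or 4 h replicates 2 or 3 (adjusted p 0.0116, 0.0104 and 0.0171), and without 24 h replicate 2 Sat1 was called lower from 8 to 24 h (adjusted p = 0.00861) and higher from 2 to 4 h (adjusted p = 0.00459), a step that DESeq2 also called (adjusted p = 0.00254).

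Calls in the steps between times turned on replicate 3 at 24 h, also in steps that hold no 24 h library. The fit estimates the spread of each gene from all libraries together. Without 24 h replicate 3, 5 members were higher at 24 h than at 8 h: Srm (0.72), Odc1 (0.26, adjusted p = 0.00277), Sms (0.35, adjusted p = 0.000475), Amd1 (0.24, adjusted p = 0.00342) and Azin1 (0.43, adjusted p = 2.83e-05). Over the alternative fits, 1933 to 6232 of all genes were called in that step, higher or lower, against 5520 in the main fit. Without that replicate, Sms and Amd1 were also lower from 4 to 8 h (−0.35 and −0.22, adjusted p = 0.000362 and 0.00491). From 2 to 4 h Sat1 (0.48) and Oaz1 (0.31) were also higher (adjusted p = 0.000233 and 0.000997). The changes with all libraries were nearly the same, at −0.35, −0.22, 0.49 and 0.31 in that order. Of all genes, 3824 were called without that replicate from 4 to 8 h, against 1840 with it. From 2 to 4 h 5321 were called, against 3000. Against 0 h, the 24 h changes without 24 h replicate 3 were −6.25 for Srm, −2.80 for Odc1, −1.78 for Amd1 and 0.55 for Smox, all called as before, and 0.10 for Paox, not called.

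The order of the members by level also turned over. Per length, the order at 0 h was Srm (581 TPM), Oaz1 (384), Odc1 (330), Azin1 (169), Amd1 (121), Sms (62.1), Oaz2 (47.3), Sat1 (21.8), Paox (5.02) and Smox (4.61), and no neighbours overlapped. At 8 h it was Oaz1 (463 TPM), Azin1 (155), Oaz2 (82.4), Sms (41.1), Odc1 (40.5), Sat1 (40.3), Amd1 (30.4), Smox (6.68), Paox (6.12) and Srm (4.75). There the neighbours Sms, Odc1 and Sat1 did not differ beyond their spread, nor did Smox and Paox. Srm was thus first of the 10 at 0 h and last at 8 h, and at 24 h it stood at 9.58 TPM, overlapping with Smox at 9.05 TPM.

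The genes around the pathway come from lists written with earlier results of these data known. S-adenosylmethionine feeds the Amd1 reaction, and methylthioadenosine is the by-product of both synthases. Of 7 tested genes of 8 listed in that supply and salvage, 5 were lower at every time against 0 h: Mat2a (which makes S-adenosylmethionine), Mtap (which cleaves methylthioadenosine), Mri1, Enoph1 and Adi1 (later salvage steps). Of all tested genes, 8.59%, 19.9%, 25.1% and 28.1% were lower at 2, 4, 8 and 24 h. The list median was −0.64, −1.31, −1.61 and −1.10, beside 0.01, 0.08, 0.09 and 0.07 over all tested genes. At 2 h the count lower was 3 to 5 over the alternative fits, since the call of Adi1 was lost without any 1 library of 0, 2, 4 or 8 h and that of Mri1 without 0 h replicate 1 or 2 h replicate 3, and at 24 h it stayed 5. Mat2a was at 605, 630 and 665 CPM at 0 h, 138, 150 and 150 CPM after 8 h, and 312, 298 and 273 CPM after 24 h, so it lay below the MYC on state with a partial return. Mtap was at 31.0, 28.0 and 25.0 CPM at 24 h, against 169, 172 and 183 CPM at 0 h, with no overlap. Apip, which acts between Mri1 and Enoph1, was higher from 4 h on (0.83, 1.06 and 0.76; adjusted p = 0.000126, 7.31e-06 and 0.000149), and Mat2b was not called.

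For arginine and ornithine supply, 7 of 11 listed genes were tested, and 2, 3, 4 and 5 were lower at 2, 4, 8 and 24 h (list medians 0.08, −0.26, −1.29 and −1.95), where 8.59%, 19.9%, 25.1% and 28.1% of all tested genes were lower, with medians of 0.01, 0.08, 0.09 and 0.07. The arginine transporter Slc7a1 (−2.05 ± 0.115 at 24 h), the mitochondrial ornithine carrier Slc25a15 (−2.44 ± 0.101), Aldh18a1 (−1.95 ± 0.072), which makes the precursor of proline and ornithine, Ass1 (−2.27 ± 0.154) and Oat (−0.56 ± 0.08) were lower at 24 h, and Asl, which releases arginine, was called higher at 8 h (0.47, adjusted p = 0.00166), a call lost without 0 h replicate 2 or 8 h replicates 1 or 2 (adjusted p = 0.0126, 0.0133 and 0.0151). Slc7a1 was at 36.5, 38.7 and 53.5 CPM at 24 h, against 184, 178 and 171 CPM at 0 h, and was higher at 24 h than at 8 h (0.89, adjusted p = 1.94e-05). Arg2 was not called.

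Spermidine is the substrate for hypusine, an amino acid that is made on Eif5a by Dhps and Dohh. Of the 4 tested genes of this route, 0, 2, 3 and 3 were lower at 2, 4, 8 and 24 h (list medians −0.31, −0.42, −0.75 and −0.95), where 8.59%, 19.9%, 25.1% and 28.1% of all tested genes were lower. The 4 h count was 0 to 3 over the alternative fits: Eif5a and Dohh were both lost with upper-quartile factors (adjusted p = 0.0162 and 0.0237), without 0 h replicate 2 (0.016 and 0.0259) and without 4 h replicate 2 (0.0119 and 0.0108), Dohh also without 0 h replicate 1 or 3 or 4 h replicate 3 (adjusted p 0.0108 to 0.0138), and Dhps was added by DESeq2 (adjusted p = 0.00204). At 8 and 24 h the count stayed 3. Eif5a was at 1037, 1061 and 750 CPM at 24 h, against 3157, 3397 and 3218 CPM at 0 h (log2 fold change −1.78 ± 0.105, adjusted p = 5.73e-10), and Dohh (−1.25) and Dhps (−0.65) were lower at 24 h too (adjusted p = 1.14e-07 and 5.59e-05). At 2 h these 3 genes had changes of −0.23, −0.34 and −0.28, not called by edgeR, though all 3 had an unadjusted p under 0.05, 1 was called by DESeq2 and 3 without 24 h replicate 3. Of the polyamine transporters, 2 of 8 listed were tested, Atp13a2 and Atp13a3, and neither was called by the main edgeR fit at any time against 0 h. The Atp13a3 change of −0.26 at 24 h was just short (adjusted p = 0.0101), and Atp13a3 was called lower by DESeq2, and without 24 h replicate 3, at 2, 4 and 24 h. At 24 h, RLE factors and no low-count filter also called it lower (adjusted p = 0.00399 and 0.0029). So did TMM without the 20 most abundant and mitochondrial genes (adjusted p = 0.00958), and leaving out 2 h replicate 3 or any 1 library of 4 or 8 h. At 4 h RLE factors called it too (adjusted p = 0.00658), whereas library totals called it at none of the 4 times. Of 6 further relatives 2 were tested: besides Amd2, the antizyme Oaz3 was lower at 24 h (−0.88 ± 0.109, adjusted p = 3.11e-06).

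**Figure D4:**
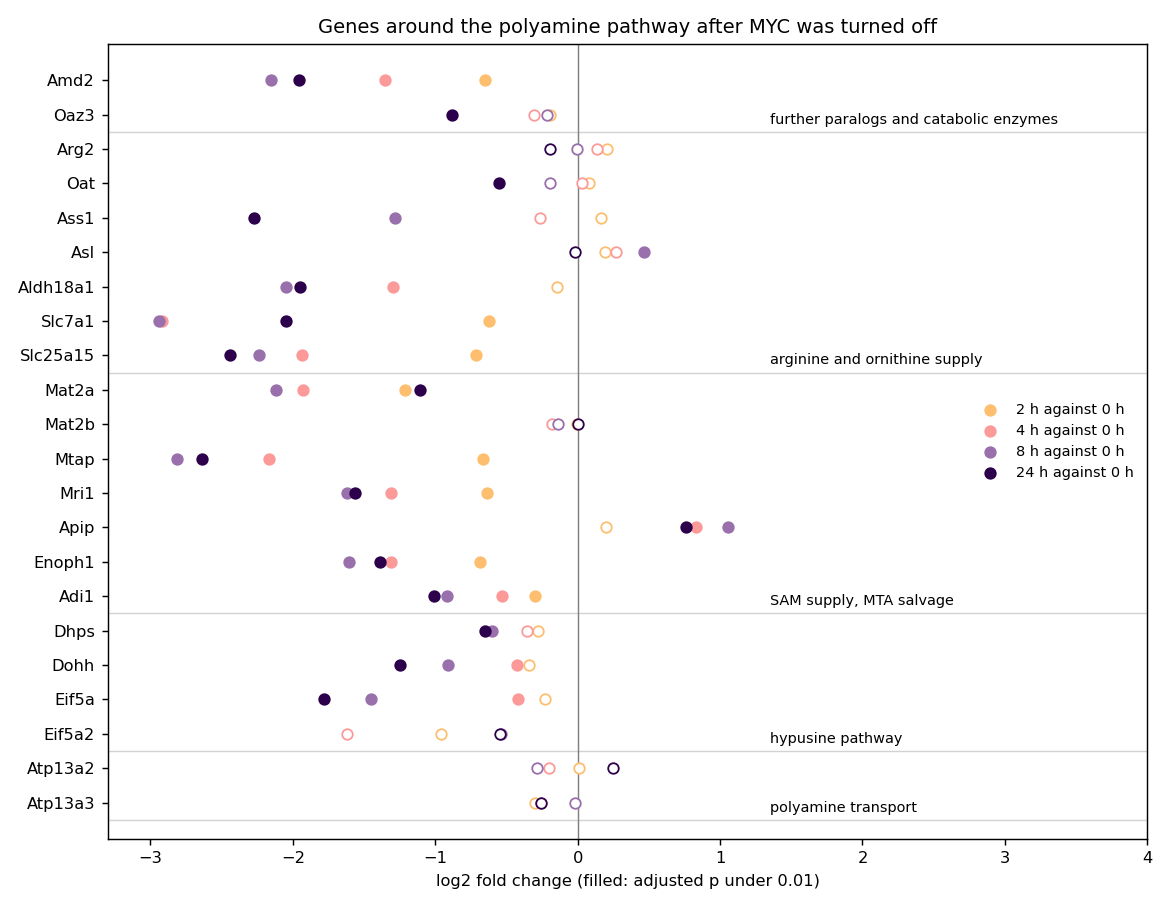
Fitted log2 fold change (horizontal axis) of the tested genes around the polyamine pathway (rows, grouped by list) at 2, 4, 8 and 24 h against 0 h, with filled points called at adjusted p under 0.01. Most called points lie left of 0, such as Mtap at −2.64 and Slc25a15 at −2.44 at 24 h, and Apip lies to the right from 4 h on.

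The genes whose course lay nearest to 3 members were found by Euclidean distance over the 4 fitted log2 fold changes among the 8750 tested protein-coding genes with a mean of at least 10 CPM at 1 or more times. Within them, the nearest to Srm were Bcat1 (distance 2.28), Txnrd3 (2.47), Polr1b (3.32), Dctd (3.38) and Car12 (3.39), and at 8 h the deepest of these, Txnrd3, reached −5.28 beside −6.97 for Srm. Odc1 had Ipo4 (0.197), BC048403 (0.243), Stra6 (0.303), Dkc1 (0.314) and Timm8a1 (0.319). Sat1 had Rpa3 (0.065), Hsdl2 (0.0732), Morc1 (0.107), Mindy1 (0.11) and Naxe (0.116). The same 5 genes of 5 were nearest to each member on plain library totals, and the 4 changes share the 0 h libraries.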

How the data were processed

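Poly(A) RNA of 15 libraries was sequenced. Per the submitters' processing notes, reads were trimmed with cutadapt 1.16, aligned with STAR 2.5.4b to mm10 and counted with featureCounts. Not given in the sources used here were annotation release, strand setting and the treatment of reads with several matches. The authors deposited raw counts per gene and, beside them, TPM, which were normalized by the authors for gene length and depth. The 10 members and the pathway lists were chosen with earlier results of these data known. Symbols were matched by identifier for 53274 of 53380 features.

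From the deposited counts, edgeR 4.0.16 (R 4.3.3) gave the quasi-likelihood F test over all libraries, with filterByExpr on the 5 time points (14485 genes), TMM scaling and Benjamini-Hochberg adjustment over all tested genes, called at adjusted p under 0.01, the false discovery rate of the study's methods. An SE is the absolute log2 fold change divided by the square root of F. CPM were TMM-scaled and serve within a gene, TPM between genes and for ratios. Totals of 25852711 to 27102318 counts set the precision, and PCR reads without molecular identifiers are not independent molecules. Named from each list were the genes that passed where 5 or fewer did. Promoter sequences came from RefSeq (GRCm38.p6), which gave none for Srm and Azin1, and gene coordinates from GENCODE on GRCm38. Alternatives were RLE, upper-quartile and total scaling, TMM without the 20 most abundant and mitochondrial genes, no filter, a floor of 10 counts in each library, DESeq2 1.42.0, only the 2 time points compared, a replicate block, a looser adjusted p of 0.05, an absolute log2 fold change over 1, and each library left out. The labels do not say what a replicate number shares. Deviations of same-number libraries correlated from −0.599 to 0.541, over 0.1 in 13 of 30 pairs, and in all 3 pairs only between 4 and 8 h (0.541, 0.202 and 0.424), where the replicate block changed no call of a member.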

Additional observations from a re-analysis of the deposited data

How the results depend on the processing

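Srm, Odc1 and Amd1 were called lower at every time against 0 h in all 24 alternative fits. Also called in all 24 were Sms lower at 8 h, Oaz2 higher at 4 and 8 h, Sat1 higher at 8 h and Smox higher at 2 and 24 h. With an absolute log2 fold change over 1 required, 0 members were higher at 2, 4, 8 or 24 h or in the steps to 4 and 24 h, 0 were lower at 2 h or in the step from 8 to 24 h, and 1 (Srm) was lower in the step to 8 h. At adjusted p under 0.05, 2 members were higher at 4 h against 2 h and 3 lower at 24 h against 8 h. Library totals shifted the median of all genes by 0.275 at 24 h, 0.109 at 8 h and 0.167 from 8 to 24 h, and upper-quartile factors shifted it by 0.1, 0.16 and 0.141 at 4, 8 and 24 h. On library totals 5 members were higher at 24 h (Azin1 at 0.39 and Paox at 0.31 added) and Sms was not called (−0.20, adjusted p = 0.177), 3 were higher from 8 to 24 h, and 2 from 2 to 4 h, as with upper-quartile factors, no low-count filter and DESeq2. A fit of just the 2 times concerned gave 1 higher at 24 h, 3 higher from 2 to 4 h, and 0 higher and 0 lower from 8 to 24 h; with no low-count filter 2 were lower in that last step.

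Leaving out 1 library gave 1 to 3 members higher at 2 h, 1 to 4 at 4 h, 2 to 4 at 8 h and 1 to 4 at 24 h, and 0 to 3, 0 and 1 to 5 higher in the steps to 4, 8 and 24 h. Lower were 3 at 2 h, 3 to 4 at 4 h, 4 at 8 h and 3 to 4 at 24 h, and 3 to 4, 2 to 4 and 1 to 2 in the steps.

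Uncalled changes near 0 took the other sign. Oaz1 at 2 h was 0.0435 on library totals, 0.0334 with upper-quartile factors, 0.0017 with no filter, 0.0062 with 10 counts in every library, 0.0044 with only 2 time points, and −0.049 to 0.0264 without 1 library. Oaz1 at 24 h was 0.171 on library totals, 0.0404 with upper-quartile factors and −0.195 to 0.062 without 1 library, where 0.062 was without 24 h replicate 3. Azin1 was 0.0041 at 4 h and 0.0049 at 8 h with upper-quartile factors, and −0.181 to −0.0629 and −0.256 to −0.122 without 1 library. Paox at 24 h was −0.0071 with RLE, −0.0097 with no filter, −0.0071 with DESeq2 and −0.0221 to 0.101 without 1 library. As a percent of 0 h, the 24 h mean was higher on TPM than on CPM for every member. It was 118% against 93.2% for Oaz1, 130% against 102% for Paox and 137% against 109% for Azin1. For Sat1 it was 185% against 146%, and for Sms 90.9% against 72.2%.

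With the replicate block 2 members were higher at 2 h (Paox, adjusted p = 0.0105, was lost) and 3 lower at 24 h (Sms, adjusted p = 0.0128, was lost), and the block changed no other call. It called 1892 genes at 2 h, against 2200 without it. Over all genes, the calls ranged from 1422 (without 2 h replicate 3) to 5226 (only the 2 time points) at 2 h, against 2200; from 2077 to 5321 (without 24 h replicate 3) at 4 h against 2 h, against 3000; from 1111 (without 8 h replicate 2) to 3824 (without 24 h replicate 3) at 8 h against 4 h, against 1840; and from 1933 (only the 2 time points) to 6232 at 24 h against 8 h, against 5520. The causes were not tested. The fewest counts in 1 library were 70 for Srm (at 8 h), 168 for Smox and 228 for Paox, and they set the counting error of these levels.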
